A study of Mus musculus with 2 samples.

Results

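The mesothelial nuclei with clear lineage markers of mouse visceral fat are described here, nuclei of the cell layer that covers the fat pad and faces the peritoneal cavity. They were chosen by counts of marker RNA: at least 3 unique molecular identifiers (UMIs, each a captured RNA molecule) summed over Upk3b, Msln, Lrrn4, Upk1b and Nkain4, under 10 summed over 8 adipocyte genes (Plin1, Cidec, Pde3b, Acsl1, Dgat2, Pnpla2, Adrb3 and Aqp7), and at most 1 summed over the endothelial genes Ptprb and Pecam1 and the macrophage genes Cybb and Mpeg1. Members number 1538 of the 15058 nuclei that passed the filters, 172 of 2833 in replicate 1 and 1366 of 12225 in replicate 2.

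The nuclei come from gonadal visceral fat (VAT) of female C57BL/6J mice aged 2 months, 2 mice with 1 library each. Nuclei of the whole tissue were captured with the Singleron GEXSCOPE kit as the protocol states, while the descriptions name 10x Genomics and the cell type label reads Adipocytes. That label names a single type of the tissue: by their marker genes 1193 and 4277 of the filtered nuclei in replicates 1 and 2 were classed as adipocytes. The study's other libraries were not analysed here.

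The mesothelium is a sheet of flat cells that rests on a basement membrane, joins its neighbours through junctions and carries microvilli and a mucin coat on the free side. It arises from the mesoderm that lines the body cavity, and its cells hold features of epithelium, such as keratins, next to features of connective tissue, such as collagens. On visceral fat it makes up the outer lining of the pad, where it secretes matrix, complement and signals and lowers friction between organs.

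Where 2 counts, levels or shares are joined by "and", the former belongs to replicate 1 and the latter to replicate 2. Log2 fold changes are each over both libraries, and several in a row follow the order of the genes or groups named. Levels are counts-per-million (CPM), the UMIs of a gene relative to all UMIs, both summed over a group of nuclei in a library. The libraries differ in depth and in quality. Replicate 1 holds 8466237 UMIs in its filtered nuclei and replicate 2 holds 48068273. Median UMIs per mesothelial nucleus were 1881.5 and 2026.5, and median genes 1024.5 and 1269.5. The mitochondrial share was the widest gap between the libraries, with a median over the mesothelial nuclei of 9.57% and 1.30% and over all other filtered nuclei of 5.94% and 0.546%. It was thus high in replicate 1 in every kind of nucleus, and somewhat above the rest in the mesothelial nuclei of each library. The part of this difference in the results was not tested, and each value is therefore given for each library. Of the called barcodes, 85 occur in both libraries, and of the filtered nuclei 27 do. No barcode belongs to a mesothelial nucleus in both.

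Mesothelial nuclei made up 6.07% of the filtered nuclei in replicate 1 (95% interval 5.22% to 7.01%) and 11.2% in replicate 2 (10.6% to 11.7%). These exact binomial intervals hold the counting error alone, and 2 mice do not give the spread between animals. The share was higher in replicate 2, and the intervals do not overlap. It depends on the limits: with a mitochondrial limit of 5% it was 1.40% and 11.1%, with a marker sum of at least 5 it was 4.41% and 7.24%, and without the members of progenitor sum 3 or more, a setting chosen after seeing the data, 4.25% and 7.18%.

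The marker genes of the rule are given as a description only, since they chose the nuclei. Upk3b, a uroplakin that the mesothelium shares with the bladder lining, had 2086 and 1638 CPM in the members against 46.7 and 44.4 in the rest. Upk1b, a tetraspanin of the same family, had 675 and 708 CPM against 18.5 and 20.4. For Msln, which encodes the surface protein mesothelin, the members had 393 and 188 CPM and the rest 13.0 and 7.97. Each of these is far higher in the members, as the rule demands, and Msln differs most between the mice. Lrrn4, a leucine-rich repeat membrane protein, reached 388 and 306 CPM against 7.31 and 9.68, and Nkain4, a membrane protein that interacts with the sodium pump, 401 and 279 against 8.43 and 10.5. All 5 markers were seen in 21 and 70 members, at least 1 UMI of each, while 12 and 130 members rest on a single marker gene. The median marker sum was 8 and 6 UMIs, so the nuclei of replicate 1 stand somewhat further from the limit.

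On the other side of the rule, the 8 adipocyte genes summed to 1066 and 827 CPM in the members against 6901 and 6549 in the rest. Dgat2, which catalyses the last step of triglyceride synthesis, had the most UMIs of them, 136 and 611. Adipocyte RNA is therefore present in nuclei chosen for having little of it. The 2 endothelial genes summed to 22.7 and 26.9 CPM against 109 and 76.9, and the macrophage genes to 10.1 and 7.36 against 106 and 32.4.

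**Figure D1:**
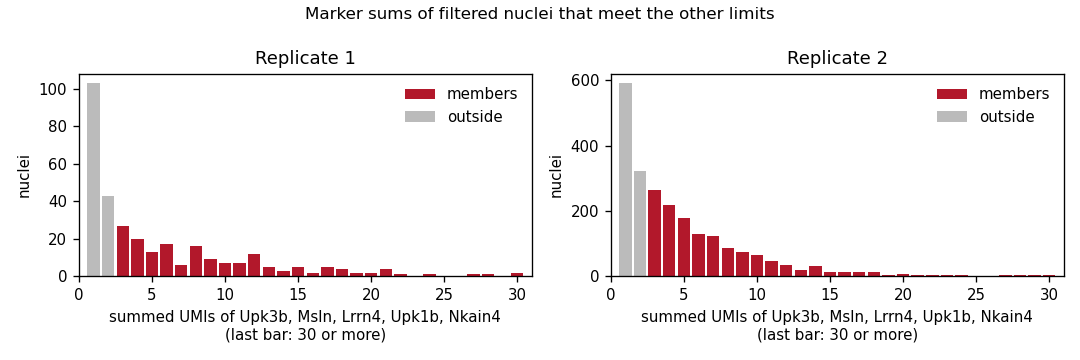
Number of filtered nuclei at each summed count of the 5 mesothelial marker genes, among nuclei that meet the adipocyte, endothelial and macrophage limits; nuclei without a marker UMI are not drawn. Members start at a sum of 3.

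The plot of marker sums falls smoothly through the limit in both libraries, with no gap. Just inside it, at a sum of 3, lie 27 and 264 nuclei, and just outside, at a sum of 2, lie 43 and 322. Muc16, a gene that the rule did not use, had 626 and 737 CPM just inside and 258 and 628 just outside. Gpm6a, likewise not used, had 603 and 700 inside against 365 and 565 outside. In replicate 2 the nuclei on either side of the limit thus carry much the same level of these genes, while in replicate 1 they stand further apart. Pparg, an adipocyte gene, had 348 and 419 CPM inside and 1185 and 516 outside, so the nuclei left out hold more adipocyte RNA, above all in replicate 1. A further 32 and 256 nuclei had enough marker UMIs but broke another limit. Their median depth was 4309 and 5409.5 UMIs and their Pparg level 1911 and 2877 CPM, higher than in the members in both respects. Of these nuclei 27 and 208 broke the limit on adipocyte genes, so both differences follow in part from the limits, which are absolute counts.

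A few promoters show what stands upstream of genes that are high together in these nuclei. The sequences are from RefSeq on GRCm38.p6, a different build from the GRCm39 of the counts, and run from 250 bases before to 50 after the start of the gene, 5′ to 3′ on its strand. Of 20 genes looked up by symbol, the 5 markers and the 15 leading genes described further on, 14 had an entry. Printed are 2 of the markers and the 2 genes outside the rule with the largest fold change, Gpm6a at both of its starts. Capitals mark the 6 letters GGAATG, or CATTCC where they lie on the other strand, a core sequence bound by TEAD factors. Upk3b lies at chr5:136038246-136038545 on the plus strand, Lrrn4 at chr2:132880813-132881112 on the minus strand and Muc16 at chr9:18674554-18674853 on the minus strand. The starts of Gpm6a lie at chr8:54779184-54779483 and chr8:54954478-54954777 on the plus strand.
Upk3b: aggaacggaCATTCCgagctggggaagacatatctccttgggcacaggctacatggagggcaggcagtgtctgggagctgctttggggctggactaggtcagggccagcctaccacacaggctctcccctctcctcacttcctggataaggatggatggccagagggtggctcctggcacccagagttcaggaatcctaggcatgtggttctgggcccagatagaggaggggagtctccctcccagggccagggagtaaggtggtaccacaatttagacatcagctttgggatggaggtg
Lrrn4: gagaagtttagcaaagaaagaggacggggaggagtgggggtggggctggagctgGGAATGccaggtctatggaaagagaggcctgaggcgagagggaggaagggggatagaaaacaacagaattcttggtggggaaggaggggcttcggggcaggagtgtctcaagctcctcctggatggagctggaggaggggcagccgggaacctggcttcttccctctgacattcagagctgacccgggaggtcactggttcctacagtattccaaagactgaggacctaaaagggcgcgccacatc
Muc16: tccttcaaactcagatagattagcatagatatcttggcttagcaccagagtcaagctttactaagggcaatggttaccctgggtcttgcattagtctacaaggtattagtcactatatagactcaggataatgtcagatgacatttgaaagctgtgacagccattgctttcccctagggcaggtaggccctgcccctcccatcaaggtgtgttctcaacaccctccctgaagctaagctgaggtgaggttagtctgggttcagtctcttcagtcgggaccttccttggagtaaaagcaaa
Gpm6a, upstream start: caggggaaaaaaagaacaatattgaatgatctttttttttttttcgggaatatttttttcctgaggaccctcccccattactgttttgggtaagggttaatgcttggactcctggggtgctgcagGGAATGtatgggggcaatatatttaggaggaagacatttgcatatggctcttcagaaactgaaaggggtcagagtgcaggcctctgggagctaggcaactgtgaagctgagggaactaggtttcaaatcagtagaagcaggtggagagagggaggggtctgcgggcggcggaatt
Gpm6a, downstream start: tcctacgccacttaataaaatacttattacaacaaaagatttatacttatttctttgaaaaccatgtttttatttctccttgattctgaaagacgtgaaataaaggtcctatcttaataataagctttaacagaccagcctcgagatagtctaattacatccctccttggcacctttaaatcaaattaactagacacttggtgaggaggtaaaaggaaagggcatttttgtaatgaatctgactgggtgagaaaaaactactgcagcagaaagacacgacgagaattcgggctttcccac

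These letters occur in Upk3b, Lrrn4 and the upstream start of Gpm6a, and not in the other windows printed. The 14 genes have 16 promoters in the table; the letters were found in 5 of these, and in 14.7% of all 32851 promoters. The letters AGATAA, a core of GATA sites, were found in 2 of the 16, of Fmod and Slc39a8, and in 11.2% of all promoters. GCGTGGG, letters bound by WT1 and by EGR factors, were found in none of the 16 and in 5.04% of all promoters. Both strands were searched, and the motifs do not overlap in the windows printed. A match is a description of the letters only.

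For tests, UMIs were summed over the members and over all other filtered nuclei of each library, which gives 4 sums, and compared with edgeR's quasi-likelihood test with the library as a block. A gene is called when its Benjamini-Hochberg adjusted p is under 0.05 and its log2 fold change is at least 1 in size. Of 19164 genes tested, 2110 were called higher in the mesothelial nuclei (11.0%) and 2326 lower (12.1%), with a median log2 fold change of 0.00 over all genes. The split of the calls depends on the scaling: 47.6% of them were higher in the main analysis and 69.3% with scaling by library size alone, which shifts the median of all genes to 0.34. A further fit of gated classes compares the mesothelial nuclei with 172 and 803 progenitor nuclei, the fibroblast-like cells of the tissue, and with the adipocytes. The nuclei of these classes hold no UMI of the 5 mesothelial genes of the rule, and the adipocytes at most 1 of the progenitor genes, so levels of mesothelial genes in them are lowered in part by the gate. Against progenitors 795 of 10108 genes were called higher (7.87%) and 670 lower (6.63%). Against adipocytes 2629 were called higher (26.0%) and 1751 lower (17.3%); there 60.0% of the calls were higher, and 72.4% with scaling by library size alone, at a median of 0.30 instead of 0.01, while DESeq2 puts that median at 0.22. All 3 comparisons share the mesothelial sums, and none of the 17 genes of the rule was tested. These counts are the background against which each list of genes is read.

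**Figure D2:**
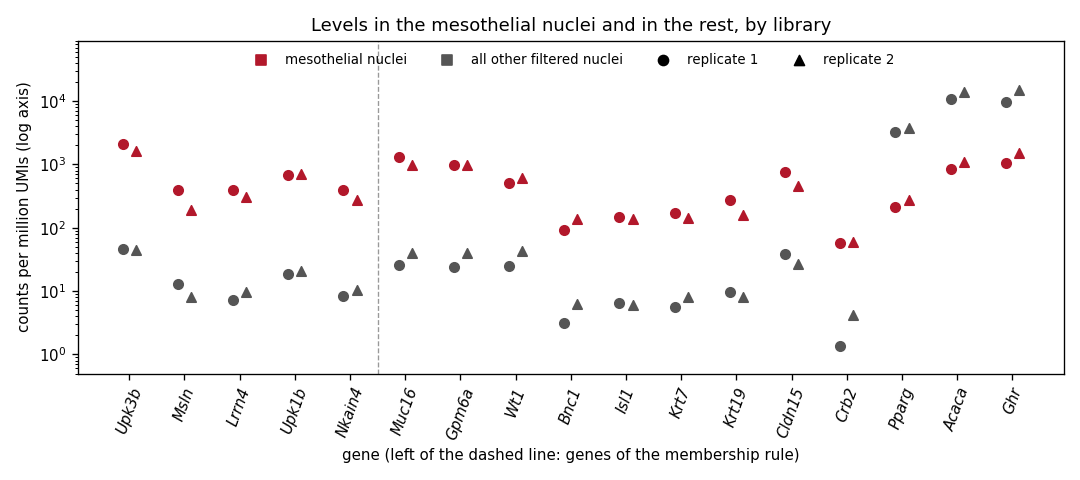
Level of selected genes in the mesothelial nuclei and in all other filtered nuclei of each library, in CPM on a log axis. The 5 genes at the left chose the nuclei.

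Among further known markers of mesothelium, which had no part in the choice, some were high in these nuclei and some were not. Wt1, a zinc finger transcription factor of the body cavity lining, had 504 and 613 CPM in the mesothelial nuclei against 25.0 and 42.4 in the rest. It was high in both mice, with a log2 fold change of 3.74 (edgeR's quasi-likelihood test, p after Benjamini-Hochberg adjustment 1.5e-82). Muc16, the membrane mucin that binds mesothelin, had 1302 and 981 CPM against 26.1 and 39.9. With every nucleus thinned to 1000 UMIs, Muc16 was seen in 50.6% (42.9% to 58.3%) and 46.5% (43.8% to 49.2%) of the mesothelial nuclei. Among all filtered nuclei with 10 or more UMIs of adipocyte genes, which should lack it, the share was 1.69% and 2.18%; this group, chosen after seeing the data, has no limit on other genes and by the rule holds no member. The median depths before thinning were 1881.5 and 2026.5 UMIs in the mesothelial nuclei and 3099 and 5332 in that group. Wt1 was seen in 32.6% (25.6% to 40.1%) and 40.0% (37.4% to 42.6%) of the thinned mesothelial nuclei and in 1.15% and 1.95% of that group. Calb2, the calcium-binding protein calretinin and a common stain for mesothelium, was near the floor at 3 and 21 UMIs and was not called.

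Transcription factors of the coelomic lining were listed as 17 genes, of which 16 were tested: 9 were called higher and 1 lower, with a median log2 fold change of 1.09 beside 0.00 over all genes. Bnc1, a zinc finger protein basonuclin, had 90.7 and 137 CPM in the mesothelial nuclei, 3.10 and 6.21 in the rest, and 2.79 and 2.09 in progenitors. Isl1, a LIM homeodomain factor, had 146 and 139 CPM against 6.57 and 6.05. Gata5 reached 70.5 and 41.9 CPM against 2.23 and 2.38. All 3 were high in the mesothelial nuclei of both mice, with log2 fold changes of 4.24, 4.17 and 4.09, and all 3 were also called higher than in progenitors. Its relative Gata6, often named a mesothelial factor, was spread more widely: 207 and 173 CPM in the mesothelial nuclei, 103 and 96.2 in the rest and 53.0 and 77.3 in progenitors. It was called against progenitors with a log2 fold change of 1.45, and not against the rest, where the value was 0.59. Sox6 had 877 and 1271 CPM in the mesothelial nuclei and only 33.4 and 102 in progenitors, a log2 fold change of 3.96; against the rest, at 534 and 678 CPM, it was not called. Wt1 itself was also above the progenitors, which had 128 and 216 CPM, with a log2 fold change of 1.73. Nr2f1 and Nr2f2, a pair of related orphan receptors, went opposite ways. Nr2f2 had 197 and 184 CPM against 47.5 and 43.9 in the rest and was called higher, while Nr2f1 had 0 and 5 UMIs in all and was called lower, at a log2 fold change of -3.33. The factors Tbx18 and Tcf21, which also serve fibroblasts, were called higher than in the rest at 2.03 and 1.14, but Tbx18 was not called against progenitors, and Tcf21 was called lower there.

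Keratins, the filament proteins of epithelia, were called in a single direction: of 7 listed, 5 were tested and all 5 were called higher, with a median of 4.11. Krt19 had 277 and 158 CPM against 9.67 and 8.03 in the rest. Krt7 had 174 and 144 CPM against 5.58 and 8.10. Krt18 had 50.4 and 30.7 CPM and its partner Krt8 had 42.8 and 23.7, while the rest had under 2 CPM of each. These 4 keratins, which simple epithelia make, were high in both mice. The other called keratin is Krt14, of layered epithelium, at 1 and 10 UMIs and a log2 fold change of 2.44. Thinned to 1000 UMIs, Krt19 was seen in 16.9% (11.6% to 23.3%) and 12.5% (10.8% to 14.4%) of the mesothelial nuclei and in 0.544% and 0.521% of all filtered nuclei with 10 or more UMIs of adipocyte genes, at median depths of 1881.5 and 2026.5 against 3099 and 5332 UMIs. Most members thus show no Krt19 UMI at that depth. Krt5, the partner of Krt14, and Krt20, of gut and bladder, had 1 and 1 and 0 and 6 UMIs and were not tested.

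Junction and polarity genes numbered 21, all tested: 10 were called higher and none lower, with a median of 1.14. The cadherin of these nuclei is Cdh11, known from mesenchyme, at 1114 and 1064 CPM against 33.8 and 48.8 in the rest. Cdh1, the cadherin of most epithelia, had 1 and 43 UMIs and was not called, nor was Cdh2, at 12.6 and 22.4 CPM against 10.2 and 16.8. Cdh3 was called higher, at 106 and 78.1 CPM against 3.47 and 7.97. Among the claudins, which seal tight junctions or form pores in them, Cldn15 had 771 and 461 CPM against 38.8 and 26.3, and Cldn10 had 254 and 199, against 11.1 and 10.5 in progenitors. Cldn1 had 32.8 and 72.3 CPM against 2.60 and 3.56. All 3 claudins were called higher than the rest, with log2 fold changes of 3.89 for Cldn15, 3.76 for Cldn10 and 3.82 for Cldn1, and Cldn10 was called higher than progenitors at 4.39. F11r, a junctional adhesion molecule, had 385 and 361 CPM against 30.9 and 34.9, and Cgn, the tight junction linker cingulin, had 60.5 and 81.6 against 2.85 and 5.16. Polarity genes of the apical side followed: Crb2 at 57.9 and 60.5 CPM against 1.36 and 4.12, and Pard6b at 60.5 and 76.5 against 3.22 and 4.43. Of the desmosome genes none was called against the rest: Dsp had 3 and 17 UMIs, Pkp2 a log2 fold change of -0.51 and Dsg2 one of 1.26 at 12.6 and 10.9 CPM, or 5 and 34 UMIs. Tjp1 and Pard3, which many cell types use, were not called either. Against progenitors, 13 of 16 tested genes of this list were called higher and none lower, with a median of 3.31 beside 0.05 over all genes.

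Surface and secreted proteins linked with mesothelium made a list of 22, all tested, of which 17 were called higher and none lower, with a median of 3.06. Gpm6a, a membrane glycoprotein that shapes filopodia, had 970 and 971 CPM against 23.8 and 39.6. Podxl, an anionic coat protein that keeps membranes apart, had 647 and 433 CPM against 30.4 and 26.7. Ezr, or ezrin, which ties microvilli to actin, had 406 and 241 CPM against 12.9 and 14.9. These 3 genes of the free surface were all high, and also above progenitors by log2 fold changes of 5.56, 4.78 and 3.72. The insulin-like growth factor binding proteins Igfbp5 and Igfbp6 were high too, Igfbp5 at 4031 and 2477 CPM against 194 and 130 and Igfbp6 at 3041 and 1800 against 144 and 96.1. Clu, the secreted chaperone clusterin, had 519 and 292 CPM against 24.9 and 17.3. Pdpn, a mucin-like protein of lymphatic and lining cells, had 239 and 164 CPM against 17.3 and 17.6; it was not called against progenitors, which had 173 and 110. Cav1, the caveola coat, was not called against the rest, at 1030 and 717 CPM against 726 and 491, but was called against progenitors, which had 83.6 and 80.5. The members of the libraries differed in the secreted proteins Slpi, a protease inhibitor, and Prg4, the lubricant lubricin. Slpi had 312 and 81.6 CPM in the mesothelial nuclei, 30.2 and 8.39 in the rest and 945 and 46.3 in macrophages. Prg4 had 136 and 8.96 CPM against 119 and 10.4, and was not called against the rest. It was higher in macrophages, with 3864 and 412 CPM, and lower in progenitors, with 33.4 and 4.18, and adipocytes, with 30.5 and 2.55.

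**Figure D3:**
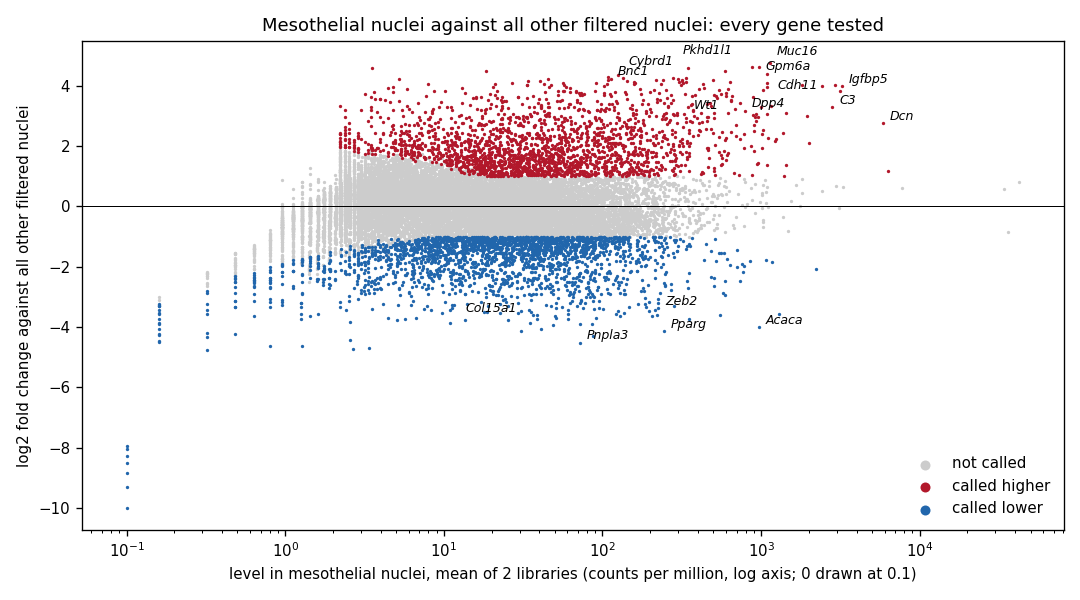
Log2 fold change of every gene tested between the mesothelial nuclei and all other filtered nuclei, against its level in the mesothelial nuclei. Red and blue genes passed the test and the limit on the fold change.

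The largest fold changes among well-counted genes, those with at least 50 UMIs in the members of each library, are drawn in the plot of fold change against level. Muc16 leads with a log2 fold change of 4.76 (standard error 0.20), then Gpm6a with 4.62 (0.20). Pkhd1l1, a large membrane protein related to fibrocystin, had 902 and 855 CPM against 21.3 and 36.2. Cybrd1, a reductase that prepares iron for uptake, had 506 and 186 CPM against 11.9 and 8.14. Nxph1, a secreted ligand of neurexins, had 615 and 574 CPM against 11.2 and 31.9. Their log2 fold changes were 4.61, 4.58 and 4.50, and in each the lower library of the mesothelial nuclei lies far above the higher library of the rest. Slc39a8, a carrier that takes up zinc and manganese, had 401 and 269 CPM against 11.2 and 14.9. Slc9a3r1, a scaffold that anchors carriers to ezrin, had 393 and 207 against 12.4 and 11.0, and Lrp2, the endocytic receptor megalin, 322 and 316 against 10.0 and 16.9. Fmod, a proteoglycan that binds collagen, had 176 and 93.4 CPM against 4.21 and 5.25. The other genes of the 15 are Cdh11, Krt19, Serpinb6b, Fam180a, Tmem151a and Lratd1, with log2 fold changes from 4.19 to 4.40. Serpinb6b belongs to a family of very similar genes, and reads may be shared among them. In the GENCODE vM39 annotation on GRCm39 the 15 genes lie on 11 chromosomes, and 4 of them, Gpm6a, Nxph1, Cdh11 and Slc39a8, overlap 1 or more genes on the same strand, all with Gm or Rik names.

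Against progenitors the largest fold change among genes with at least 50 UMIs in the members of each library was that of Cybrd1, at 506 and 186 CPM in the mesothelial nuclei and 5.57 and 1.57 in progenitors, which is 2 and 3 UMIs. The log2 fold change was 6.77 (edgeR's quasi-likelihood test, p after Benjamini-Hochberg adjustment 2.6e-42). Podxl, Krt7, Isl1, Pkhd1l1, Gpm6a and Muc16 are also among the leading 10 of these genes, with progenitor levels under 50 CPM in each library. Progenitors and mesothelial nuclei are close in depth, with medians of 1822.5 and 2107 UMIs in progenitors.

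Matrix genes fall into groups by the layer they build. Basement membrane genes numbered 25, all tested: 9 were called higher than the rest and 5 lower, with a median of 0.59. The collagen IV family divides by chain. Col4a5 had 297 and 391 CPM in the mesothelial nuclei, 21.3 and 34.0 in the rest and 114 and 157 in progenitors. Col4a6 had 270 and 289 CPM against 22.3 and 30.1 in the rest and 25.1 and 53.3 in progenitors. Col4a3 and Col4a4, whose chains assemble with that of Col4a5, had 55.4 and 92.8 and 63.0 and 75.2 CPM, and were called higher than the rest with log2 fold changes of 2.45 and 2.31. The common chains run the other way. Col4a1 had 164 and 78.1 CPM against 303 and 221 in the rest and 471 and 310 in progenitors, and Col4a2 had 85.7 and 70.4 against 258 and 265 and 212 and 198. Both were called lower, against the rest and against progenitors alike, so the mesothelial nuclei are high in Col4a3 to Col4a6 and low in the pair that most basement membranes share.

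Laminins and nidogens show a like division. Lamc1, the gamma chain of most laminins, had 151 and 137 CPM against 369 and 346 in the rest and 975 and 843 in progenitors. Lama4 had 436 and 533 CPM against 923 and 1243 in the rest. Both were called lower than the rest, with log2 fold changes of -1.64 and -1.48. Lama5, the alpha chain of many epithelial laminins, had 20.2 and 23.7 CPM, and was called higher against progenitors, at 8.36 and 5.75, but not against the rest. Nid1, which links laminin to collagen IV, had 151 and 117 CPM against 2074 and 1084 in progenitors, while Nid2 had 199 and 228 against 58.5 and 57.5. The mesothelial nuclei are thus low in the former nidogen and high in the latter. Fras1 and Frem2, extracellular proteins that hold epithelium to its basement membrane, were called higher than the rest with log2 fold changes of 2.52 and 1.59, and Npnt, a ligand of integrin alpha 8, with one of 2.76.

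**Figure D4:**
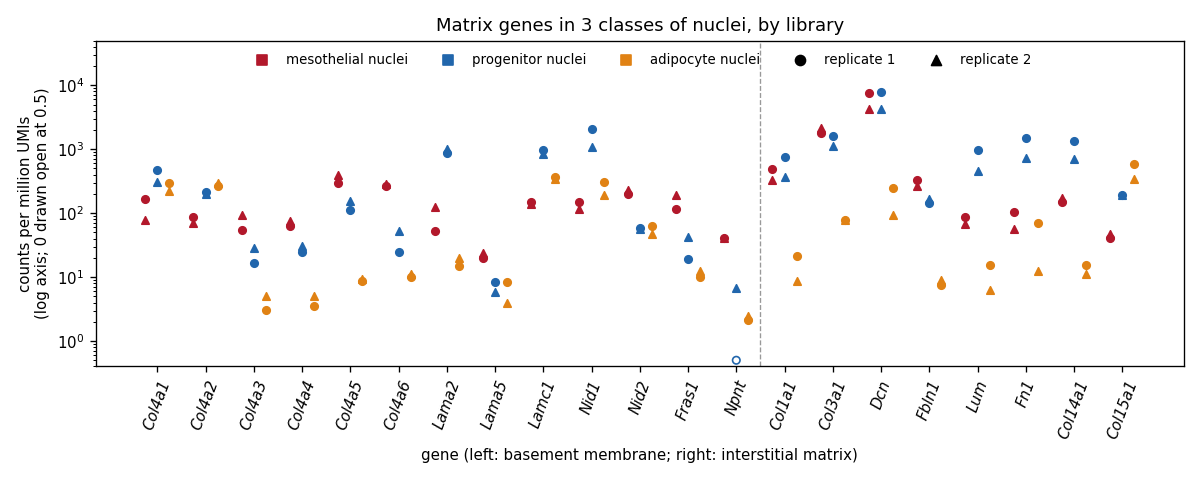
Level of basement membrane and interstitial matrix genes in the mesothelial, progenitor and adipocyte nuclei of each library, in CPM on a log axis. An open symbol stands for a count of 0.

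Interstitial matrix genes numbered 18: 11 were called higher than the rest and 2 lower, with a median of 1.45. Against progenitors none was called higher and 9 were called lower, with a median of -0.92 beside 0.05 over all genes. The plot of matrix genes by class shows both sides. Dcn, the collagen-binding proteoglycan decorin, had 7470 and 4264 CPM in the mesothelial nuclei, 880 and 500 in the rest and 7790 and 4230 in progenitors. Col3a1 had 1764 and 2158 CPM against 186 and 202 in the rest and 1591 and 1107 in progenitors. These are as high as in progenitors, and neither was called there, with log2 fold changes of 0.01 and 0.58. Col1a1 had 484 and 325 CPM against 71.0 and 42.1 in the rest. Fn1, or fibronectin, had 103 and 55.7 CPM against 1516 and 721 in progenitors, and Lum, a proteoglycan of collagen fibrils, had 85.7 and 68.5 against 964 and 458. Both were called lower, with log2 fold changes of -3.68 and -2.99. Col15a1, which stands between basement membrane and fibrils, was called lower against the rest, progenitors and adipocytes: it had 40.3 and 47.4 CPM, with 503 and 296 in the rest, 192 and 192 in progenitors and 597 and 337 in adipocytes.

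Complement genes, 18 listed and all tested, gave 7 called higher and 7 lower with a median of -0.20. By library the median of log2 CPM ratios, with genes at 0 in the members ranked lowest (a choice made after seeing the data), was -0.85 and 0.52, beside 0.07 and 0.39 over all genes, so the list lies below all genes in replicate 1 and above them in replicate 2. C3, the protein on which all complement routes meet, had 3283 and 2350 CPM in the mesothelial nuclei against 261 and 201 in the rest and 1090 and 760 in progenitors. It was high in both mice, with log2 fold changes of 3.28 against the rest and 1.65 against progenitors. C1ra, C1s1 and Serping1, the proteases of the classical route and their inhibitor, were called higher than the rest at 2.81, 2.35 and 3.09 and were not called against progenitors. Cd55, a membrane brake on complement, had 27.7 and 62.4 CPM against 1243 and 827 in progenitors and was called lower there. Among those called lower than the rest are C1qa, C1qb and C1qc, which macrophages make, and Cfd, an adipocyte product, so these follow in part from the rule.

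Cytokines and adhesion molecules of immune cells gave 6 called higher and 4 lower among 13 tested of 18 listed, with a median of 1.10. Il33, an alarm cytokine kept in the nucleus, had 118 and 243 CPM against 25.1 and 32.4 in progenitors. It was high in both mice and more so in replicate 2, with log2 fold changes of 3.52 against the rest and 2.74 against progenitors. Il18 had 118 and 127 CPM against 11.0 and 13.4 in the rest, and was not called against progenitors. Cxcl13, which draws B cells, had 25.2 and 25.3 CPM against 6.94 and 2.18 and was called higher. The chemokines Ccl11 and Cxcl12 and the adhesion molecule Vcam1 were called lower, both against the rest and against progenitors. Cxcl1, Ccl2, Ccl7 and Il6 were too scarce to test against the rest, with at most 9 UMIs in either library.

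Signals of the Wnt and BMP families were frequent: of 29 genes listed 27 were tested, 16 were called higher and 1 lower, with a median of 1.53. Rspo1, a secreted amplifier of Wnt signals, had 179 and 327 CPM against 9.79 and 17.8 in the rest. Wnt2b had 83.1 and 99.8 CPM against 3.47 and 4.83. Bmp4, a ligand of BMP receptors, had 121 and 198 CPM against 4.59 and 10.1. These secreted signals are all high in both mice, by log2 fold changes of 3.87, 4.10 and 4.09. Each of the 3 genes was also called higher than in progenitors. Lgr5, a receptor of R-spondins, had 47.9 and 96.0 CPM against 5.95 and 12.2, while Lgr4, another such receptor, had 52.9 and 56.6 against 100 and 131. The former was called higher and the latter lower. Dkk3 was called higher at 3.51. Progenitors hold another set: Sfrp2, Sfrp4, Wnt10b and Wnt11 were called lower in the mesothelial nuclei than there, among 8 genes called higher and 6 lower of 19 tested.

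Ligands and receptors of the EGF family gave 3 called higher and 1 lower of 12 tested, with a median of 0.54. Tgfa had 63.0 and 50.2 CPM against 5.82 and 7.65 in the rest, and the receptor Erbb2 had 37.8 and 27.2 against 5.20 and 5.14. Both were called higher, by 2.63 and 2.23. Nrg4, an adipocyte signal, was called lower at 50.4 and 94.4 CPM against 691 and 1049. Egfr was not called against the rest, and was lower than in progenitors, with 136 and 175 CPM against 382 and 1111.

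The retinoic acid list gave 4 called higher and 2 lower of 15 tested, with a median of 0.04. By library the median of log2 CPM ratios, ranked as for complement, was -0.05 and 0.64, below the 0.07 of all genes in replicate 1 and above the 0.39 in replicate 2. Aldh1a2, the enzyme that makes retinoic acid in coelomic tissue, had 159 and 126 CPM against 8.43 and 9.72 in the rest and 11.1 and 9.41 in progenitors. Its sister Aldh1a3 shows the reverse against progenitors, with 2.52 and 7.04 CPM against 148 and 95.1. The former was called higher by a log2 fold change of 3.57 against the rest and of 3.93 against progenitors, and the latter lower than progenitors by -4.09. Rarres2, which encodes the chemoattractant chemerin, had 348 and 325 CPM against 38.7 and 32.6 in the rest and was called higher. Rbp4, which carries retinol in blood, and Dhrs3, which turns retinal back to retinol, were called lower.

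Prostaglandin genes gave 5 called higher and 2 lower of 11 tested, with a median of -0.01. Pla2g4a, which releases arachidonic acid, had 259 and 244 CPM against 19.3 and 26.8. Ptgs2, the inducible cyclooxygenase, had 20.2 and 21.8 CPM against 1.24 and 1.31. Ptgis, the prostacyclin synthase, had 496 and 344 CPM against 46.3 and 32.5. With Ptgs1, the other cyclooxygenase, these genes were all called higher than the rest, with log2 fold changes from 2.31 to 3.70. Against progenitors Pla2g4a was called higher, Ptgis and Ptgs1 were not called, and Ptgs2 was not tested. Hpgd, which breaks prostaglandins down, was also called higher, at 151 and 164 CPM against 14.9 and 24.9. Ptges, which makes prostaglandin E2, was called lower at 60.5 and 42.6 CPM against 164 and 95.8.

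Nuclear hormone receptors, 14 listed and all tested, gave 2 called higher and 5 lower, with a median of -0.52. Pgr, the progesterone receptor, had 22.7 and 38.1 CPM against 4.09 and 5.63 in the rest, a log2 fold change of 2.34. Esr1, an estrogen receptor, was not called, at 710 and 1119 CPM against 640 and 1056. It is thus present in the mesothelial nuclei of these female mice at about the level of the rest. Nr3c1, the glucocorticoid receptor, had 197 and 233 CPM against 535 and 643, and Thrb, a thyroid hormone receptor, had 134 and 305 against 512 and 762. Both were called lower.

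Genes of epithelial-mesenchymal transition and TGF-beta signals gave 7 called higher and 4 lower of 18 tested, with a median of 0.75. Zeb2, a repressor of epithelial genes, had 159 and 291 CPM against 1817 and 1912 in the rest and 883 and 1313 in progenitors. It was low in both mice and called lower against each, by -3.37 and -2.26. Its relative Zeb1 was not called against the rest and was called lower than in progenitors, at 333 and 503 CPM against 1516 and 1900. Snai1 had 1 and 4 UMIs. Twist1, of the same list, was called higher than the rest and was not called against progenitors, while Twist2 was called lower than both. Tgfb3 had 73.1 and 127 CPM against 12.1 and 12.9 and was called higher, and the receptor Tgfbr1 had 55.4 and 99.2 against 148 and 189 and was called lower. Acta2 and Tagln, of the contractile filaments, had 70.5 and 49.9 and 65.5 and 21.8 CPM, more than in progenitors, where both were under 10 CPM.

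Hyaluronan genes were mostly at the level of the rest: 1 of 8 tested was called higher, none lower, with a median of -0.22. The called gene is the synthase Has1, at 2 and 34 UMIs. Has2, the synthase of progenitors at 61.3 and 60.6 CPM, had 7.56 and 4.80 in the mesothelial nuclei and was called lower than there. Against progenitors 4 genes of the list were tested, with a median of -2.17 beside 0.05 over all genes. Has2, Cd44 and Tnfaip6 were called lower and Cemip2 was called higher.

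**Figure D5:**
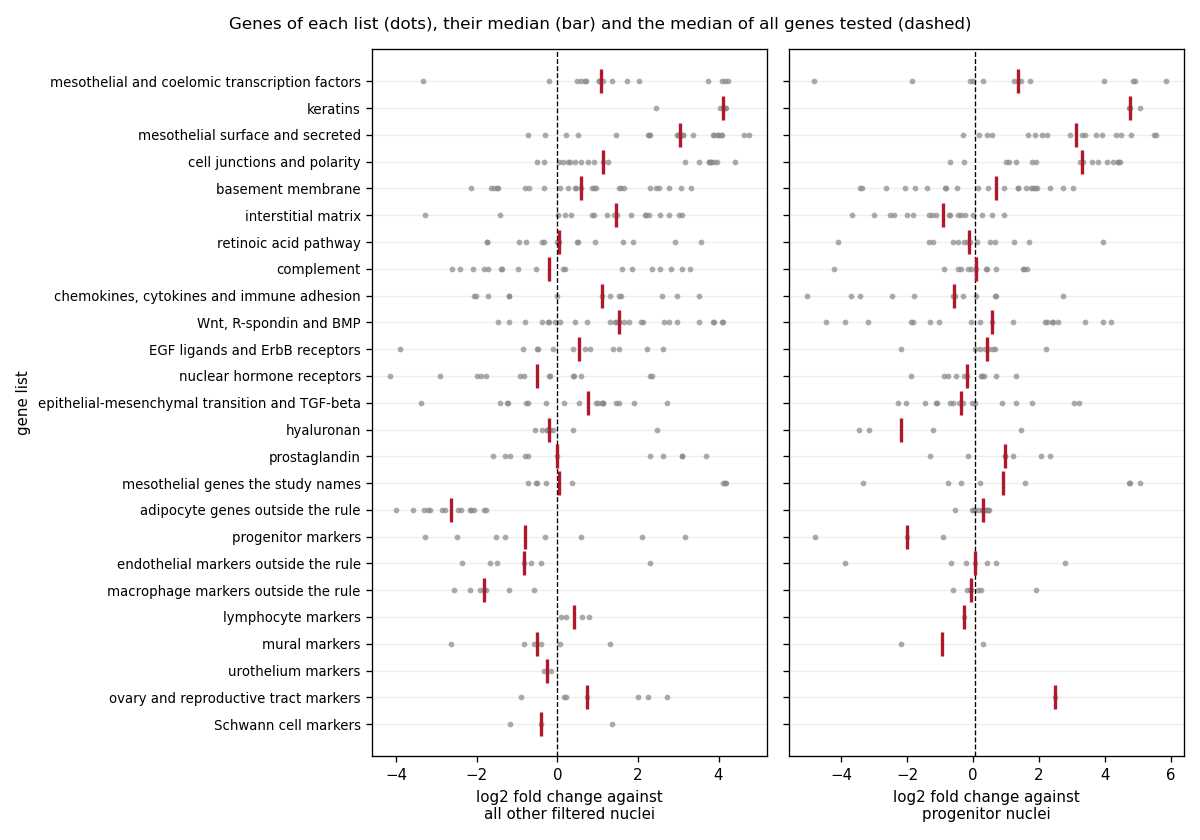
Log2 fold change of each tested gene of the 25 lists against all other filtered nuclei and against progenitors. Red bars are medians of the list and the dashed line is the median of all genes tested.

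The plot of all lists shows the keratins and the surface list furthest to the right against the rest. Of the 25 lists, 14 have a median above that of all genes. In replicate 1 alone the number is 14 and in replicate 2 alone 16.

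Several of the lowest genes in the mesothelial nuclei are known from adipocytes, and this follows in part from the rule, which left out nuclei with 10 or more UMIs of adipocyte genes. Among genes with at least 500 UMIs in the rest of each library the lowest fold change was that of Pnpla3, a lipid droplet protein, at 40.3 and 104 CPM against 1473 and 1415. Pparg, the master regulator of adipocytes, had 212 and 278 CPM against 3196 and 3717. Acaca, which starts fatty acid synthesis, had 841 and 1086 CPM against 10872 and 13993. Their log2 fold changes were -4.52, -4.14 and -4.01. Tshr, the thyrotropin receptor, Pgm3, Myl1 and Nrg4 lie among the 10 lowest, with values from -3.93 to -3.74.

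Adipocyte RNA did not vanish. Of 14 adipocyte genes outside the rule, all 14 were called lower than in the rest, with a median of -2.63, and none was called against progenitors, with a median of 0.30 beside 0.05. Together they had 10972 and 7760 CPM in the mesothelial nuclei, 67627 and 57851 in adipocytes and 10917 and 6516 in progenitors. The mesothelial nuclei and the progenitors are thus alike in this respect, which follows in part from a shared limit. Both classes were held under 10 UMIs of the 8 adipocyte genes of the rule. None of the 14 genes was at 0 in the mesothelial nuclei. The most abundant was Scd1 in replicate 1, with 1209 UMIs, and Ghr in replicate 2, with 4792. Relative to adipocytes the level of a gene ranged from 6.19% for Acaca to 29.1% for Fabp4 in replicate 1, and from 6.31% for Acaca to 43.8% for Cfd in replicate 2. The part of this RNA in the results was not tested.

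Other cell types leave smaller traces. Macrophage markers outside the rule, 7 genes, summed to 154 and 258 CPM in the mesothelial nuclei against 13981 and 14455 in the macrophages; 6 were called lower than the rest, none was at 0, and the most abundant were Mrc1 in replicate 1 and F13a1 in replicate 2. Endothelial markers, 8 genes, summed to 275 and 215 CPM against 5926 and 5903 in endothelial nuclei, with Egfl7 at 0 in both. The most abundant of them, Kdr, the main receptor of vascular endothelial growth factor, was called higher in the mesothelial nuclei, at 113 and 103 CPM against 14.7 and 18.9 in the rest. Cdh5 and Emcn, which define endothelium, were called lower, at 10.1 and 7.04 and 12.6 and 10.2 CPM. Macrophage and endothelial markers called lower than the rest follow in part from the rule, which allowed at most 1 UMI over its own such genes. Against the rest Kdr was the only 1 of 7 tested endothelial markers called higher, and 3 were called lower. Against progenitors Kdr alone was called higher, and Tek was called lower. Against adipocytes Flt1, Tek and Emcn were called higher along with Kdr. Mural markers, 6 genes, summed to 108 and 105 CPM against 7922 and 5517 in mural nuclei, the most abundant being Mcam and Pdgfrb, with none at 0; none was called higher and 1 was called lower. Lymphocyte markers, 6 genes, summed to 60.5 and 82.9 CPM, led by Skap1, with Cd3e, Cd79b and Ms4a1 at 0 in replicate 1; none of 4 tested was called. The part of these cells in the results was not tested.

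Tissues that lie near gonadal fat were checked as well. Urothelium markers, 7 genes, came to 1 and 35 UMIs in all, or 2.52 and 11.2 CPM, with Upk2 and Psca at 0 in both libraries and 6 of 7 genes at 0 in replicate 1; the most abundant was Upk1a and then Grhl3. The 7 genes had 6.82 and 9.17 CPM in the rest. Ovary and reproductive tract markers, 10 genes, summed to 98.3 and 106 CPM, against 31.1 and 37.6 in the rest, with Foxj1 at 0 in both and Amh and Foxl2 at no more than 2 UMIs. Of 7 tested, 3 were called higher: Star, which carries cholesterol into mitochondria and is the most abundant of the list, at 45.3 and 43.2 CPM against 5.58 and 8.25, and Inha and Epcam at lower counts. Their part in the result was not tested.

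Progenitor genes need separate mention, since the rule set no limit on them. Of 8 progenitor markers 2 were called higher than the rest and 4 lower, and they summed to 1371 and 1603 CPM, against 8782 and 6227 in progenitors, with none at 0. Dpp4, a surface peptidase used to sort early progenitors, is the most abundant: 675 and 898 CPM in the mesothelial nuclei, 68.3 and 71.3 in the rest and 864 and 628 in progenitors. Dpp4 is one of the 5 genes that gate progenitors, with Pdgfra, Fbn1, Pi16 and Bmper, so their level in progenitors follows from the gate and was not tested against it. In the mesothelial nuclei Dpp4 supplies 72.0% and 75.6% of the UMIs of these 5 genes. Pdgfra, the receptor by which such cells are usually named, had 12.6 and 25.3 CPM against 45.2 and 41.9 in the rest, and was called lower. Thinned to 1000 UMIs, Dpp4 was seen in 40.1% (32.7% to 47.9%) and 49.3% (46.7% to 52.0%) of the mesothelial nuclei and in 2.06% and 2.15% of all filtered nuclei with 10 or more UMIs of adipocyte genes, which should lack it and have median depths of 3099 and 5332 UMIs against 1881.5 and 2026.5. Pdgfra was seen in 1.74% (0.361% to 5.01%) and 1.90% (1.25% to 2.78%) of the mesothelial nuclei and in 1.51% and 0.961% of that group. Ebf2, a progenitor factor, was called lower, at 22.7 and 105 CPM against 1892 and 1835 in progenitors. Members with 3 or more UMIs of these 5 genes number 54 and 526. They had 1786 and 1253 CPM of Muc16, against 931 and 719 in the other members, and a median depth of 2892.5 and 2610.5 UMIs against 1610.5 and 1730.5. Upk3b had 2099 and 1486 CPM in them against 2076 and 1785, and Krt19 342 and 150 against 227 and 166. These members are thus deeper in both libraries, which follows in part from choosing them by a count of UMIs. They also have more Muc16 in both libraries, while Upk3b and Krt19 are lower in them in replicate 2. Without Dpp4, 10 and 74 members have 3 or more.

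Ranked by the worse of its ranks in the libraries, the gene that varies most among the members is one of RNA that is not protein-coding, as are the next 3. The variance of Pearson residuals, which is near 1 for a gene that differs between nuclei by counting alone, had a median of 1.42 and 1.39 over 5992 genes. It was 25.9 and 51.4 for Rn18s-rs5, a ribosomal RNA sequence, 8.02 and 14.2 for the mitochondrial mt-Rnr2, and 10.8 and 6.71 for the nuclear RNA Malat1. The correlation of residuals between Malat1 and mt-Rnr2 was -0.28 over 172 members and -0.40 over 1366, and nuclei of a library share its depth and quality. Members with more Malat1 thus tend to have less mt-Rnr2. Cmss1 follows Rn18s-rs5, with correlations of 0.76 and 0.60.

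The 15 most variable genes also hold protein-coding genes. Igfbp5 had a variance of 7.20 and 5.39 and up to 58 and 50 UMIs in a single nucleus, with UMIs in 91.3% and 84.4% of the members. Fmo2, a flavin monooxygenase, had UMIs in fewer nuclei: it was seen in 18.6% and 19.5% of the members, yet reached 38 and 62 UMIs in a nucleus, at a variance of 5.02 and 10.7. Nxph1 is like it, seen in 28.5% and 30.2% with up to 47 and 49 UMIs. The residuals of Fmo2 and Nxph1 correlated weakly, at 0.07 and 0.28. Thbd, or thrombomodulin, a brake on clotting at the cell surface, was seen in 66.3% and 64.3% of the members with a variance of 4.82 and 3.32. Dcn and Igfbp5 went together, with correlations of 0.30 and 0.28. Sntg1, Nlgn1, Nkain2, Adamtsl1 and Chl1 complete the 15 with mt-Rnr1. Of these, Sntg1, Nlgn1, Nkain2 and Adamtsl1 were called higher in the mesothelial nuclei than in the rest, at log2 fold changes from 2.55 to 4.04, and Chl1 was not called, at 0.94.

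Genes that the study names for mesothelial nuclei and their subgroups make a list of 9, of which 8 were tested and 3 called higher, with a median of 0.05. The 3 are the keratins Krt7, Krt18 and Krt19. Gpc6, a heparan sulfate proteoglycan, had 134 and 237 CPM against 164 and 194 in the rest and 1803 and 1954 in progenitors; it was called lower than in progenitors. Pde4d, which degrades cyclic AMP, had 489 and 853 CPM against 770 and 977 in the rest and 167 and 289 in progenitors, and was called higher than in progenitors. Erbb4, a neuregulin receptor, had 20.2 and 100 CPM against 72.2 and 78.7, low in replicate 1 alone, at 8 UMIs. Cd164 and Slc7a2 were not called against any group but adipocytes, where Slc7a2 was higher. Areg, an EGF family ligand, had 1 and 4 UMIs and was not tested. These values compare the mesothelial nuclei with other nuclei, and differences between subgroups of mesothelial nuclei were not tested.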

How the data were processed

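Each deposited matrix holds counts as whole UMIs per gene and barcode, which the authors obtained with CeleScope on GRCm39; their annotation version is not given, and positions are from GENCODE vM39. The filters asked for more than 500 genes, more than 1000 UMIs and a mitochondrial share below 15%. The members and the gene lists were chosen with earlier results of these data known. Scrublet (scanpy 1.11.5, expected doublets 6%, seed 1) marked 1 nucleus per library at its own threshold, so none was removed; an alternative removes the 6% with the highest scores. Sums per library were tested with edgeR 4.0.16 under R 4.3.3 (TMM, filterByExpr, robust quasi-likelihood, library as a block), with DESeq2 1.42.0 as an alternative. The fit against the rest has 4 sums, 3 coefficients and 1 residual degree of freedom per gene. With the library as a block, p-values rest on how the difference between members and rest varies between these libraries. The fit draws that spread in part from all genes together, so p-values do not measure the spread between animals. Class fits used classes with at least 20 nuclei in each library, which leaves out mural nuclei. Named genes are the rule's genes, list genes, the 15 highest and 10 lowest against the rest, the 10 highest against progenitors, the 15 most variable (theta 100, UMIs in at least 5% of members) and those the study names. Other tools were Python 3.11.15, numpy 2.4.6, scipy 1.17.1, pandas 2.3.3 and matplotlib 3.10.9. Some genes of the lists are not reported here.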

Additional observations from a re-analysis of the deposited data

How the results depend on the processing

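With 2 mice the spread between animals is poorly known. The number of genes called against all other filtered nuclei was 4436, and moved to 2740 when nuclei were thinned to 1000 UMIs. Against progenitors it was 1465, and moved to 940 with no replicate block. Against adipocytes it was 4380, and moved to 2786 when nuclei were thinned to 1000 UMIs. The other settings, among them 2 chosen after seeing the data (without members of progenitor sum 3 or more, and without mitochondrially encoded genes), kept each number within 1.5-fold. The mitochondrial limit of 5% was not run for the tests, since it keeps 16 members in replicate 1. A marker sum of at least 2 moved the shares from 6.07% and 11.2% to 7.59% and 13.8%, and stricter lineage limits to 4.84% and 9.46%. All 204 named genes called against the rest kept their sign without replicate 1, and all 201 that could be compared kept it without replicate 2. The log2 ratio of 118 moved by at least the spread between the libraries without replicate 1, and that of 130 without replicate 2. Named calls also ended under other settings: against the rest 19 of 199 when thinned, 18 of 204 with no replicate block, 14 with no filter on low counts and 12 with DESeq2, and against progenitors 27 of 137 with no block and 15 with DESeq2. The number of lists with a median above all genes was 14, and 14 or 16 in a single library. Against adipocytes the log2 fold change of Sfrp4 was 1.95, with a range of -0.37 to 2.66 when a library was left out, and that of Adgre1 was 1.15, with a range of -0.24 to 1.88; both were reversed without replicate 2.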
